A study of Mus musculus with 10 samples.

Results

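The genes described here are long noncoding RNA (lncRNA) genes that lie far from any protein-coding gene start, called distal lncRNA genes below. Bulk strand-specific RNA-seq was performed on whole testes of mice at postnatal day 4, in 5 Dis3 conditional knockout (cKO) and 5 control libraries, each from both testes of 1 mouse. Dis3 cKO mice carried a floxed and a deleted Dis3 allele together with a Ddx4-Cre transgene, the strain being labelled B6D2F1 for all mice, and control mice were siblings from the same litters. Because the Ddx4 promoter drives Cre in germ cells, Dis3 stayed intact on the floxed allele of the somatic cells, which make up most of a testis at this age. The other allele of these somatic cells was deleted, and the Dis3 genotypes of the control siblings are not stated. Changes that follow a lost allele in somatic cells therefore cannot be told apart from those that follow the loss in germ cells. A gene was taken as distal when its annotated biotype was lncRNA, its mean over the 10 libraries was at least 10 raw counts, and its 5′ end lay more than 10000 bp from the 5′ end of every protein-coding gene on either strand. Of the 54232 genes in the count table, 9057 were lncRNA genes, 1680 of these had enough counts, and 727 of those were far enough away. Gas5, the Snhg genes and the imprinted H19, Meg3, Rian, Kcnq1ot1 and Airn were left out (11 genes), which left 716 distal lncRNA genes. The 943 lncRNA genes within 10000 bp of a coding start (proximal lncRNA genes) and the 15083 protein-coding genes with at least 10 counts served for comparison. The genes were thus chosen by annotation and selected on mean raw count. The count threshold used the same counts as the comparison of cKO with control, so a gene low in 1 group could enter through the other.

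Just inside the count threshold stood Gm16153, with mean raw counts of 6.8 in cKO and 13.2 in control libraries, and Gm43149, with 4.2 in cKO and 15.8 in control. Just outside it stood Gm47424, at 7.8 in cKO and 12 in control, and Gm48342, at 8.0 in cKO and 11.8 in control. For the distance threshold, Gm29358 (10019 bp) and Gm32834 (10047 bp) lay just inside, and Gm43597 (9815 bp) and Gm14661 (9709 bp) just outside.

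Long noncoding RNAs are transcribed by RNA polymerase II and usually spliced and capped like mRNAs, but they are not translated into conserved proteins. Many stay in the nucleus, where they meet the RNA exosome, a ring of noncatalytic subunits that feeds RNA to the ribonucleases DIS3 and EXOSC10. The nuclear exosome removes short-lived transcripts, among them RNA made upstream of promoters in the antisense direction, and it trims the ends of stable RNAs. In early postnatal testis, gonocytes and the first spermatogonia are the germ cells, embedded among Sertoli, Leydig, peritubular myoid, stromal and vascular cells.

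Distal lncRNA genes were weakly expressed. Their median mean raw count was 24.8 per library, with a lower quartile of 14.97 and an upper quartile of 58.05, and the highest belonged to Malat1. Median exonic length was 2042 bp, the median span 7686 bp, the median number of merged exons 3, and the median distance to the nearest coding start 44157.5 bp. They lay on every autosome and both sex chromosomes, most often on chromosome 5 (66 genes) and least often on the Y chromosome (2 genes). Of the 716, 426 overlapped no protein-coding gene, 171 overlapped one on the opposite strand and 119 overlapped one on the same strand. Reads that featureCounts could assign to 2 genes on 1 strand were left uncounted by its default, so the counts of the 119 are the least certain.

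Promoter sequences of 7 distal lncRNA genes are given here because the results below turn on these genes: 4 that were higher in cKO testes (4930556J02Rik, Gm9530, E030044B06Rik and 1700003G18Rik), 2 whose upstream antisense RNA alone was higher (Malat1 and 1700112H15Rik), and Tslrn1, which was lower. Each run is 300 bases of RefSeq on GRCm38.p6, written 5′ to 3′ along the gene, with the 250 bases before the RefSeq start in lower case and the 50 bases from that start on in capitals.
4930556J02Rik (chr14:61492438-61492737, plus strand): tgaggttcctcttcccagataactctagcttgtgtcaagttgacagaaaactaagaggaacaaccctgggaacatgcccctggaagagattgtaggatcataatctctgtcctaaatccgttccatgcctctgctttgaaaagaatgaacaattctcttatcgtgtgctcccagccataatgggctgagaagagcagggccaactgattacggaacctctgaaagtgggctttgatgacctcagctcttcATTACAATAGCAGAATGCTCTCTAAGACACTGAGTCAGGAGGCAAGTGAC
Gm9530 (chr1:155083215-155083514, minus strand): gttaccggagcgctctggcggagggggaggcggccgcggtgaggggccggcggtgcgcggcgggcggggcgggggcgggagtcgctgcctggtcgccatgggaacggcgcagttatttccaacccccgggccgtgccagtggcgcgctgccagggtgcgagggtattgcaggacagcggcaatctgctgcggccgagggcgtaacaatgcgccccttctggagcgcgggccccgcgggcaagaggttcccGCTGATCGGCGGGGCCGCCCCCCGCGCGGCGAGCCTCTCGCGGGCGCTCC
E030044B06Rik (chr19:40868066-40868365, plus strand): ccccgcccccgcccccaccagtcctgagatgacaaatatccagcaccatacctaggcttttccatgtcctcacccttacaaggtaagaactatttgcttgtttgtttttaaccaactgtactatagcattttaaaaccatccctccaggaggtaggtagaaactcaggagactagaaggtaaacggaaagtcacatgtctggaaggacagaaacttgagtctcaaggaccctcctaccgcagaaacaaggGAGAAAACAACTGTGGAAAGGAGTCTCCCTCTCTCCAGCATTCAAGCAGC
1700003G18Rik (chr7:116093100-116093399, minus strand): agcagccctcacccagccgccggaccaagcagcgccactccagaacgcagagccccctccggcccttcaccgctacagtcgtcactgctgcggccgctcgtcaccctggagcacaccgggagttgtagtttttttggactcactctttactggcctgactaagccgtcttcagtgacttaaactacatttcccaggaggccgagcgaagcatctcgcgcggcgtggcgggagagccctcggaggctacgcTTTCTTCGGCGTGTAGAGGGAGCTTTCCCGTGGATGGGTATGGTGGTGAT
Malat1 (chr19:5802623-5802922, minus strand): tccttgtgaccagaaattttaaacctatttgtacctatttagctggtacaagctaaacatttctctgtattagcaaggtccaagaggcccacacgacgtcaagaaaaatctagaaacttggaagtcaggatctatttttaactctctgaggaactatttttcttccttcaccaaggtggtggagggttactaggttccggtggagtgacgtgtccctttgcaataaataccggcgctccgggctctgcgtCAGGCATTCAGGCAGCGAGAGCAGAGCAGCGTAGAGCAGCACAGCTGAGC
1700112H15Rik (chr1:184557642-184557941, minus strand): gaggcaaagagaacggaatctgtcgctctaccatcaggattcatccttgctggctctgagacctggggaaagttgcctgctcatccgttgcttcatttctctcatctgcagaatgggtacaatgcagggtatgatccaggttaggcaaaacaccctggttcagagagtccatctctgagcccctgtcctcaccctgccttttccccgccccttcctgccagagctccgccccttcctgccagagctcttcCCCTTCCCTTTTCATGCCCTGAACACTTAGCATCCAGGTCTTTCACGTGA
Tslrn1 (chrX:62526962-62527261, minus strand): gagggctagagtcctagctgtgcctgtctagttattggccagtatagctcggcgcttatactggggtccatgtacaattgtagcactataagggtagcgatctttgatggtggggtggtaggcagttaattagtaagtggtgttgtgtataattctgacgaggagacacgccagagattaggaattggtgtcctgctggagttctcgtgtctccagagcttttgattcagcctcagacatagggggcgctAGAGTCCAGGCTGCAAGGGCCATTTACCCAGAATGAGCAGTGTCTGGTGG

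In RefSeq, 331 of the 716 distal lncRNA genes had a promoter entry, 205 of them with a start within 100 bp of the 5′ end used for counting. CpG dinucleotides numbered 43 in the Gm9530 window and 24 in the 1700003G18Rik window, against 10 for Malat1, 7 for Tslrn1, 6 for 1700112H15Rik, 4 for E030044B06Rik and 3 for 4930556J02Rik. The median was 7 over the 331 distal lncRNA genes and also 7 over all 32851 mouse promoters. TATAAA on either strand occurred in 12.99% of distal lncRNA promoters and in 13.6% of all promoters, and in none of the 7 printed windows. AATAAA, the poly(A) signal, which can share bases with TATAAA, lay on the sense strand in 11.2% of distal lncRNA promoters and in 11.3% of all, and in the antisense direction in 10.3% and 10.5% of them. Of the 7 windows, that of Malat1 held it, on the sense strand.

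Dis3 mRNA, the target of the deletion, stood at 1384.9, 1372.0, 1361.8, 1640.5 and 1708.8 normalized counts in cKO libraries 1 to 5, against 4115.4, 4296.5, 4313.8, 5161.4 and 5091.2 in control libraries 1 to 5. A normalized count is the raw count divided by the size of its library relative to the others after TMM scaling. Every cKO library lay below every control library (log2 fold change −1.62 ± 0.09 SE, adjusted p = 3.78e-07, edgeR's quasi-likelihood test), and the remaining signal includes RNA of somatic cells. Gene counts summed to between 28538849 and 37739906 per cKO library and between 35391042 and 41104912 per control library. Of the other 28 tested genes on a list of nuclear RNA decay factors, Exosc8, Rbm7 and C1d were lower and Zfc3h1 was higher. Germ cell markers were lower as a group: 8 of 15 tested fell and none rose, and their summed level was 19868 to 26676 normalized counts in cKO libraries and 29758 to 35408 in control libraries. In whole testes, fewer germ cells and less RNA per germ cell cannot be told apart. None of 9 Sertoli and none of 6 stromal markers was called, 1 of 6 Leydig markers (Cyp17a1) was lower, 1 of 6 myoid markers (Myh11) and 1 of 5 endothelial markers (Cdh5) were higher, and none of 5 macrophage, 2 erythroid, 2 epididymal duct or 2 adipose markers tested was called. Of the adipose markers, Adipoq and Cidec averaged under 4 normalized counts in either group, while Plin1 averaged 568 in cKO and 560 in control and Fabp4 averaged 72.7 in cKO and 69.8 in control. Of the epididymal duct markers, Crisp1, Lcn8 and Defb22 were under 4 in either group, while Pax2 averaged 180 in cKO and 160 in control and Pax8 averaged 141 in cKO and 198 in control.

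The first question was how many distal lncRNA genes differed between Dis3 cKO and control testes. Among the 690 that passed the low-count filter, 33 were higher and 8 were lower in Dis3 cKO testes (adjusted p under 0.05 over all 20043 genes tested, edgeR's quasi-likelihood test). The corresponding shares of all genes tested were 4.42% higher and 3.48% lower, so the share of distal lncRNA genes called higher, 4.78%, was close to the background, and the share called lower, 1.16%, was smaller (these shares were not tested against each other). The remaining 26 genes were too low to test. Of the 33 increases, 28 exceeded 2-fold and 14 exceeded 4-fold, with a median log2 fold change of 1.79. The median log2 fold change over all tested distal lncRNA genes was 0.05, compared with −0.01 over all genes, and it was −0.01 without cKO replicate 1. In 35 of the 690 distal lncRNA genes every cKO library lay above every control library, and in 9 every cKO library lay below. Over all 20043 genes tested, the corresponding shares were 4.59% and 4.31%.

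The count threshold shaped these numbers. Of the 33 increases, 12 were in genes that averaged under 10 raw counts in control libraries, and which therefore could enter only through the cKO libraries. Among the 619 tested genes with at least 10 raw counts in both groups, 21 were higher (3.39%) and 8 were lower (1.29%). Of these 21 increases, 16 exceeded 2-fold and 6 exceeded 4-fold, with a median log2 fold change of 1.53. All 33 increases and all 8 decreases were also called by DESeq2, and 18 increases kept adjusted p under 0.05 whichever single library was left out. Only 2 decreases did so, Tslrn1 and Ppp1r36dn. The number called lower was 4 without cKO replicate 3, 3 without cKO replicate 5, 3 without control replicate 1, and 4 without control replicate 2, 4 or 5.

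**Figure D1:**
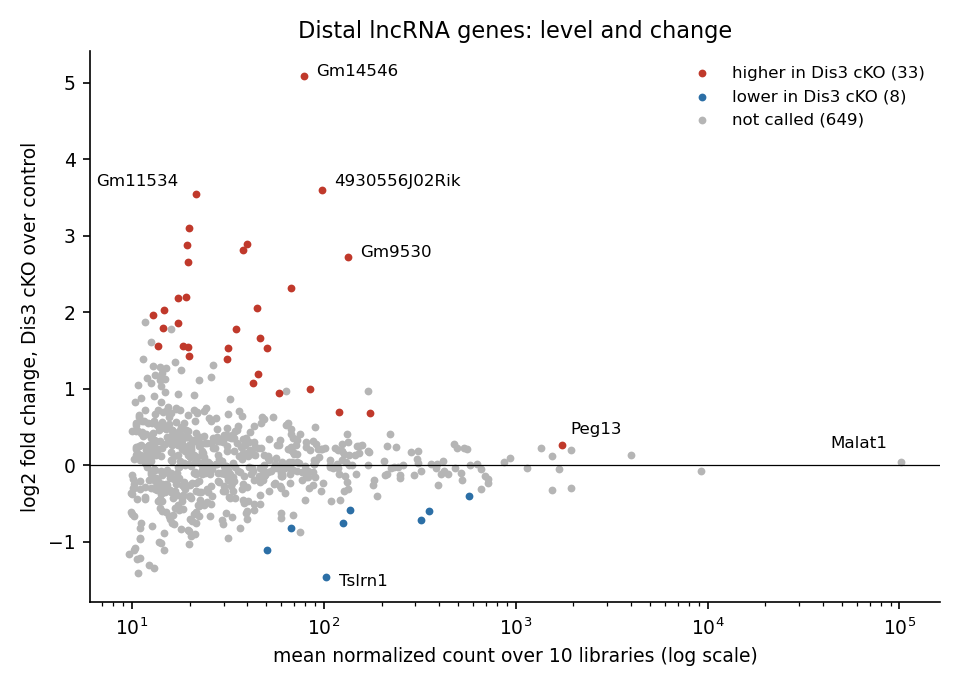
Each point is 1 of the 690 tested distal lncRNA genes, placed by its mean normalized count over 10 libraries (log x axis) and its log2 fold change, Dis3 cKO over control (y axis); red marks the 33 called higher, blue the 8 called lower and grey the rest. The largest increases lie among genes of low and moderate level, with Gm14546 at 5.09 the highest. Smaller ones reach abundant genes such as Peg13, at 0.27, while Malat1, at the right edge, lies at 0.04.

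Read depth differed between the gene classes, so calls were also set side by side at like counts. Between 10 and 20 mean raw counts, 14 of 260 distal lncRNA genes were higher (5.38%), as were 12 of 252 proximal lncRNA genes (4.76%) and 7 of 795 protein-coding genes (0.881%). Between 20 and 50 counts, the shares were 4.35% of 230 distal, 11.6% of 336 proximal and 0.962% of 1144 protein-coding genes. At 100 counts or more they were 3.92% of 102 distal, 8.97% of 156 proximal and 5.31% of 12206 protein-coding genes. Decreases were counted in the same classes. Between 10 and 20 and between 20 and 50 counts no distal lncRNA gene was lower, against 0.755% and 0.874% of protein-coding genes. Between 50 and 100 counts 2 of 98 distal lncRNA genes were lower (2.04%), against 2.52% of protein-coding genes. At 100 counts or more 6 of 102 were lower (5.88%), against 5.01% of protein-coding genes and none of 156 proximal lncRNA genes. Proximal lncRNA genes as a whole had 88 increases and 1 decrease among 916 tested (9.61% and 0.109%), with a median log2 fold change of 0.20. The size of called increases also went with counts: between 10 and 20 counts their median log2 fold change was 2.002 for distal lncRNA genes and 1.61 for protein-coding genes, and at 100 counts or more it was 0.69 and 0.38. These medians cover called genes only, and a call at low counts takes a larger change. The median SE of tested distal lncRNA genes was 0.45 between 10 and 20 counts and 0.16 at 100 or more. Their smallest called increases were 1.42 and 0.27. These values describe the classes, and no test of their difference was run.

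**Figure D2:**
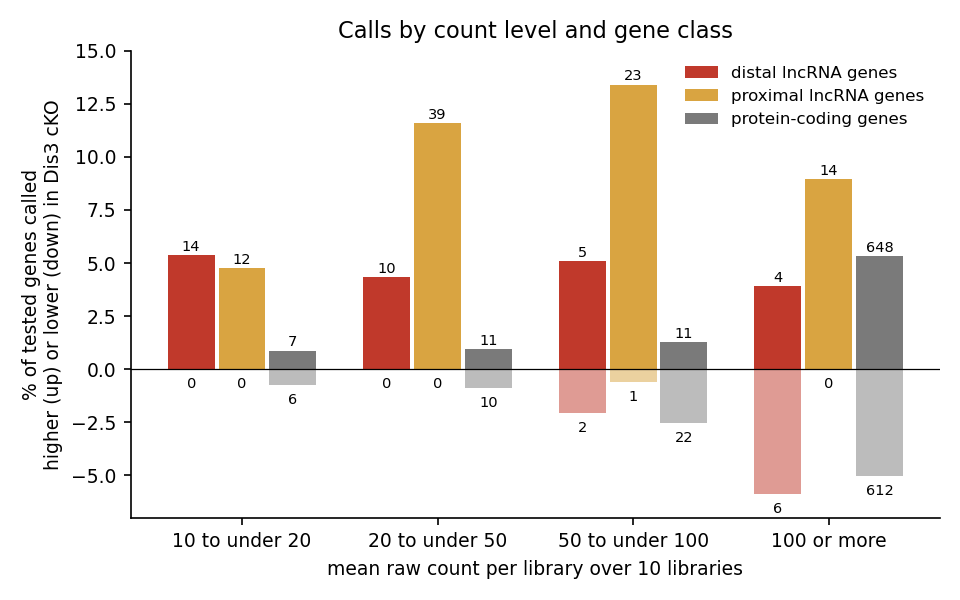
Percent of tested genes called higher (bars upward) or lower (paler bars downward) in Dis3 cKO, by mean raw count per library, for distal lncRNA genes (red), proximal lncRNA genes (ochre) and protein-coding genes (grey); the number at each bar is the count of genes called. Distal lncRNA genes stay between 3.92% and 5.38% higher in all count classes, whereas protein-coding genes are under 1.3% below 100 counts.

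The largest increase was that of Gm14546, a spliced gene on chromosome 6 (34290265 to 34324249, plus strand, GRCm38) that overlaps the aldose reductase gene Akr1b1 on the opposite strand. It had 289, 148, 124, 107 and 98.5 normalized counts in cKO libraries 1 to 5, against 2.80, 4.71, 6.72, 1.92 and 5.51 in control libraries 1 to 5. It was close to silent in controls and well above them in each cKO library, with replicate 1 highest. The log2 fold change was 5.09 ± 0.40 (SE, adjusted p = 1.1e-05, edgeR's quasi-likelihood test), while Akr1b1 changed by −0.34 and was not called (adjusted p = 0.083).

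4930556J02Rik, whose promoter is printed above, lies on chromosome 14 (61492688 to 61527389, plus strand), 52814 bp from the start of Kpna3, an importin gene that was not called (log2 fold change −0.07, adjusted p = 0.57). It had 295, 209, 188, 104 and 104 normalized counts in cKO libraries 1 to 5, against 21.4, 24.5, 8.40, 11.5 and 8.27 in control libraries 1 to 5. Again the groups were far apart, and libraries 4 and 5 were the lowest of the cKO group. The log2 fold change was 3.60 ± 0.38 (adjusted p = 0.00017).

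Gm11534, on chromosome 11 opposite B4galnt2, had 60.5, 36.1, 41.4, 36.5 and 24.9 normalized counts in cKO libraries 1 to 5, against 4.66, 1.89, 3.36, 5.75 and 0.919 in control libraries 1 to 5. Its log2 fold change was 3.54 ± 0.42 (adjusted p = 0.00048). It was among the genes with under 10 raw counts in controls, as were Gm14546 and Mir124a-1hg, while Gm6410 and Gm43156 lay just above, at 10.2 each.

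Gm9530, on chromosome 1 (155063447 to 155083266, minus strand), averaged more counts in cKO than any other of the 12 increases described here and has the CpG-rich promoter printed above. It had 360, 268, 256, 130 and 143 normalized counts in cKO libraries 1 to 5, against 34.5, 49.96, 45.4, 25.9 and 19.3 in control libraries 1 to 5. The lowest cKO library was above the highest control library (log2 fold change 2.72 ± 0.32, adjusted p = 0.00045). Its neighbour Ier5, an immediate early gene 16370 bp away, was not called (0.10, adjusted p = 0.63).

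E030044B06Rik, on chromosome 19, had 154, 105, 111, 94.2 and 94.0 normalized counts in cKO libraries 1 to 5, against 19.6, 19.8, 26.03, 32.6 and 13.8 in control libraries 1 to 5 (log2 fold change 2.31 ± 0.25, adjusted p = 0.00018). 1700003G18Rik, on chromosome 7 opposite 1110004F10Rik, had 87.6, 76.9, 71.6, 65.4 and 61.1 in cKO libraries, against 17.7, 19.8, 16.8, 14.4 and 18.4 in control libraries. The groups were far apart, with a log2 fold change of 2.05 ± 0.21 (adjusted p = 0.00014). Its overlapping partner 1110004F10Rik moved the other way (−0.28, adjusted p = 0.014).

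The other 6 of the 12 largest increases, among genes whose groups did not overlap and that averaged at least 20 normalized counts, had log2 fold changes between 0.999 and 2.88. Gm6410 averaged 70.4 ± 32.4 normalized counts in cKO and 9.47 ± 5.51 in control libraries (SD, n = 5 each). Gm43156 averaged 66.2 ± 22.8 in cKO and 9.24 ± 4.45 in control, Gm16046 averaged 70.4 ± 24.9 in cKO and 22.1 ± 4.86 in control, and A430078I02Rik averaged 47.3 ± 10.4 in cKO and 16.4 ± 8.07 in control. Their log2 fold changes were 2.88, 2.82, 1.67 and 1.53, with adjusted p of 0.0023, 0.00095, 0.0039 and 0.015 in edgeR's quasi-likelihood test. Gm13091, inside the corepressor gene Rere on the opposite strand, averaged 58.0 ± 8.07 in cKO and 27.3 ± 4.72 in control (1.08, adjusted p = 0.0087). The intronless 2810405F17Rik averaged 113 ± 24.2 in cKO and 56.6 ± 18.1 in control (0.999, adjusted p = 0.024), a call that was lost without cKO replicate 1, cKO replicate 3 or control replicate 1 (adjusted p at most 0.062). The absence of overlap was part of how these 12 genes were chosen and is a description. The 13 increases not described elsewhere had log2 fold changes between 0.69 (BC043934, averaging 149 ± 7.77 normalized counts in cKO and 91.7 ± 16.04 in control) and 2.88 (Rncr4).

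**Figure D3:**
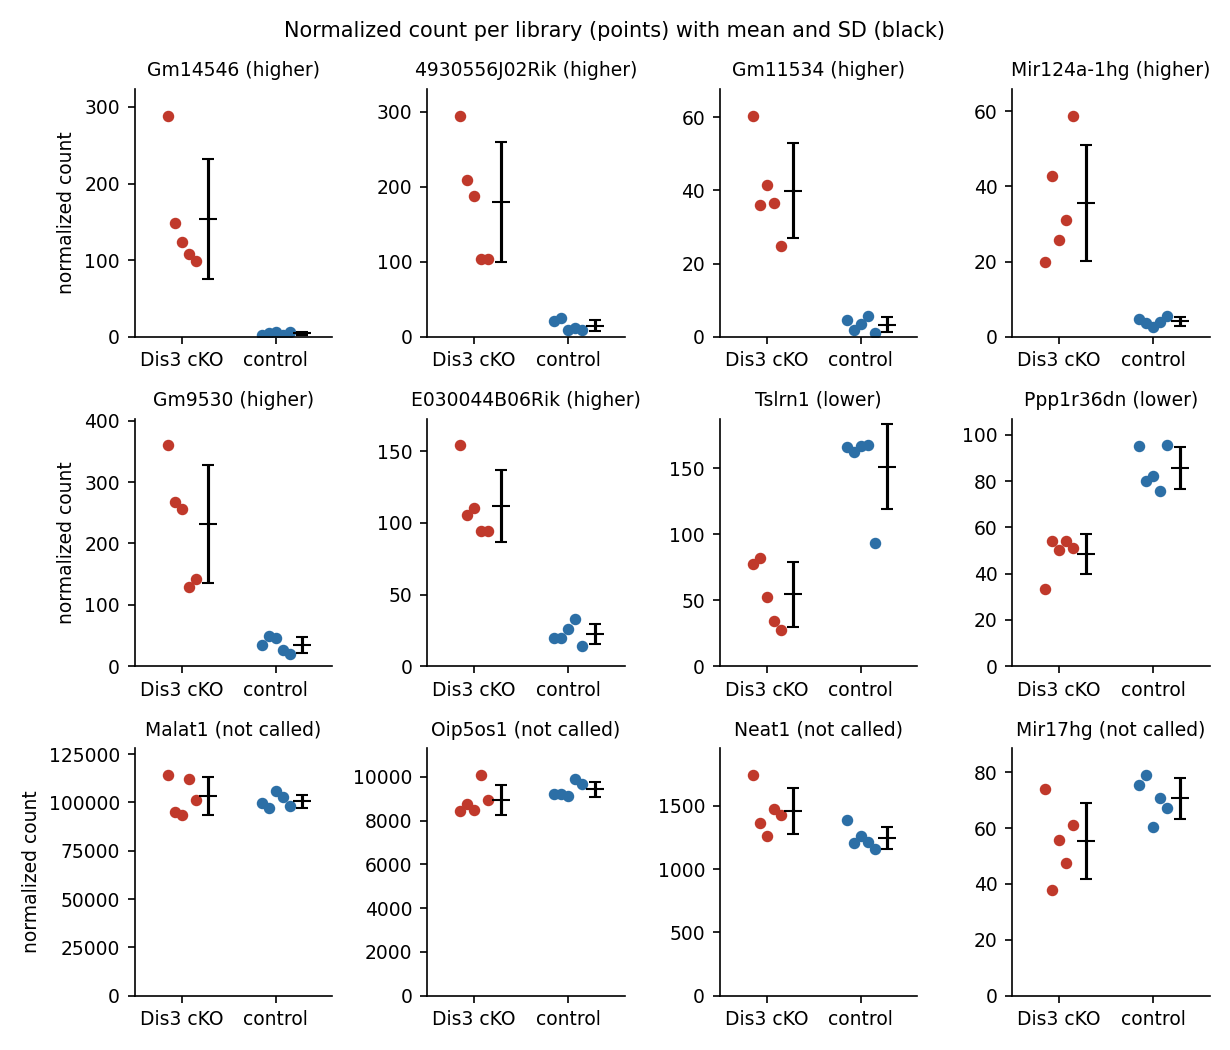
Normalized counts of 12 distal lncRNA genes in each library, Dis3 cKO (red) left of control (blue), with the mean and SD of each group in black; each y axis starts at 0. The 6 genes called higher (Gm14546, 4930556J02Rik, Gm11534, Mir124a-1hg, Gm9530, E030044B06Rik) and the 2 called lower (Tslrn1, Ppp1r36dn) have no overlap between groups, and Malat1, Oip5os1, Neat1 and Mir17hg overlap.

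Tslrn1, a testis lncRNA gene on the X chromosome (62510539 to 62527011, minus strand), had the largest decrease. It had 77.8, 81.7, 52.5, 34.3 and 27.2 normalized counts in cKO libraries 1 to 5, against 166, 162, 167, 168 and 93.7 in control libraries 1 to 5. All cKO libraries were below all control libraries, and the lowest of each group was replicate 5 (log2 fold change −1.46 ± 0.29, adjusted p = 0.0081). Of the 15 germ cell markers tested, 8 were also called lower in these libraries, among them Dazl (−0.67), Stra8 (−0.89) and Sohlh1 (−1.20). The others were not called, among them Ddx4 (−0.26), Sall4 (−0.08) and Gfra1 (0.07). The part of germ cell content in the decreases was not tested.

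Ppp1r36dn had 33.3, 54.1, 50.3, 54.3 and 51.0 normalized counts in cKO libraries 1 to 5, against 95.1, 80.1, 82.3, 75.7 and 95.6 in control libraries 1 to 5 (−0.81 ± 0.19, adjusted p = 0.017). Gm49708 averaged 32.1 ± 10.4 in cKO and 69.0 ± 22.6 in control (−1.10, adjusted p = 0.036), and 4933427D06Rik averaged 245 ± 69.0 in cKO and 400 ± 53.8 in control (−0.71, adjusted p = 0.024). Gm12940, which overlaps the splicing factor gene Sfpq on the same strand, averaged 110 ± 15.8 in cKO and 165 ± 26.6 in control (−0.59, adjusted p = 0.038), while Sfpq itself was at 0.10 and not called. 1700001L05Rik averaged 491 ± 66.8 in cKO and 646 ± 74.8 in control (−0.40, adjusted p = 0.043). The calls of Gm49708 and Gm12940 were each lost in 6 of 10 fits with 1 library left out (adjusted p at most 0.096 and 0.093), that of 1700001L05Rik in 9 (at most 0.10), and that of 4933427D06Rik without cKO replicate 5 (0.058). Gm16973 (−0.75) and 1700018B24Rik (−0.60) were also called lower, with overlapping groups.

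Most of the well-known lncRNAs were not called. Malat1, which localizes to nuclear speckles, had 114453, 94854, 93589, 112246 and 101526 normalized counts in cKO libraries 1 to 5, against 99546, 97359, 105676, 102621 and 98165 in control libraries 1 to 5. The groups overlapped throughout, and the log2 fold change was 0.04 ± 0.07 (adjusted p = 0.81). Malat1 alone took 0.261 to 0.325% of all gene counts in cKO libraries and 0.287 to 0.306% in control libraries, and the other 715 distal lncRNA genes together took 0.185 to 0.213% in cKO and 0.195 to 0.206% in control. Oip5os1 (Cyrano, which directs decay of a microRNA) averaged 8950 ± 682 in cKO and 9427 ± 340 in control (−0.07, adjusted p = 0.53). Neat1, the scaffold of paraspeckles, averaged 1456 ± 182 in cKO and 1245 ± 87.1 in control (0.23, adjusted p = 0.13). Values for Norad, a binder of Pumilio proteins, were 0.09 ± 0.16, for Firre, an X-linked nuclear RNA, 0.06 ± 0.12, and for Jpx, an activator of Xist, 0.01 ± 0.19 (log2 fold change ± SE), none of them called. Xist was near the detection limit in these male testes, at 16.3 ± 1.68 in cKO and 10.2 ± 3.74 in control (0.68, adjusted p = 0.26). The other abundant genes were AU020206, Gm53 and 2410006H16Rik, at log2 fold changes of 0.13, 0.20 and −0.29, also not called. For 2410006H16Rik (adjusted p = 0.084) the call depended on the fit: it was lower with a term for the library set (−0.30, adjusted p = 0.036) and without control replicate 3 (−0.37, adjusted p = 0.0090).

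Of the 34 known lncRNA and microRNA host genes tested, 4 were higher and 1, Tslrn1, was lower, beside 4.42% higher and 3.48% lower over all genes tested; with so few genes nothing is read from the counts. Mir124a-1hg, named for hosting a precursor of miR-124, had 19.8, 42.7, 25.7, 31.0 and 58.9 normalized counts in cKO libraries 1 to 5, against 4.66, 3.77, 2.52, 3.83 and 5.51 in control libraries 1 to 5 (log2 fold change 3.10 ± 0.40, adjusted p = 0.000805). Its control values are close to 0, and its cKO values are all above them. Lncpint, a p53-responsive lncRNA gene, averaged 215 ± 51.5 in cKO and 134 ± 23.6 in control (0.68, adjusted p = 0.033). Platr4, a pluripotency-associated transcript, averaged 22.6 ± 4.95 in cKO and 6.45 ± 3.44 in control (1.79, adjusted p = 0.015). Peg13, an imprinted gene within Trappc9, averaged 1902 ± 124 in cKO and 1580 ± 70.6 in control (0.27, adjusted p = 0.025), the smallest increase called. The calls of Lncpint and Peg13 were lost in 5 and 6 of the 10 fits with 1 library left out (adjusted p at most 0.079 and 0.068).

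MicroRNA hosts were examined separately. RefSeq placed miRNA hairpins on the sense strand within 24 distal lncRNA genes, and none of the 24 was called, where 4.42% of all genes tested were higher and 3.48% lower, shares that leave few calls to be found among 24 genes (median log2 fold change −0.03, against 0.05 over all distal lncRNA genes tested). They included Mir17hg, host of the miR-17 to miR-92a cluster with 6 hairpins, at 55.3 ± 13.7 normalized counts in cKO and 70.6 ± 7.29 in control (−0.36, adjusted p = 0.31). Dleu2, host of miR-16, was at −0.18 (adjusted p = 0.25), Dnm3os, host of miR-199a and miR-214, at 0.05 (0.91), Mirg, which holds 14 hairpins, at −0.03 (0.94), and Gm2044, which holds the miR-202 hairpin, at −0.32 (0.098). For Gm2044 the call depended on the fit. It was lower in edgeR with a replicate block (−0.33, adjusted p = 0.031) or a term for the library set (−0.32, adjusted p = 0.033), and not called by DESeq2 (adjusted p = 0.077). The libraries measure the host transcripts and not the mature miRNAs. Among the other known genes that were not called, Bvht, a lncRNA of heart development, averaged 6.92 ± 4.78 normalized counts in cKO and 17.7 ± 4.71 in control (−1.30, adjusted p = 0.089). Platr3 averaged 11.9 ± 5.35 in cKO and 20.3 ± 4.67 in control (−0.75, adjusted p = 0.22), and Platr14 averaged 45.8 ± 15.8 in cKO and 29.2 ± 12.6 in control (0.65, adjusted p = 0.27). Log2 fold changes lay between −0.20 and 0.49 for Lncenc1, Pvt1, Miat, Rmst, Trp53cor1, Sox2ot, Platr16, Platr26, Platr27 and the hosts Mir100hg, Mir99ahg, Mir181a-1hg, Mir670hg and Mir503hg (annotated under 2 IDs, neither with a hairpin on its strand in RefSeq), and Platr28 was too low to test. The Mir124a-1hg gene model in the count table held no hairpin on its strand.

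Position relative to coding genes was compared next. Of 410 tested genes with no coding overlap, 21 were higher and 6 lower (5.12% and 1.46%, median log2 fold change 0.07). Of 164 on the opposite strand of a coding gene, 9 were higher and 1 lower (5.49% and 0.61%, median 0.14), with Gm14546, 1700003G18Rik and Gm11534 at the lowest adjusted p. Of 116 on the same strand as a coding gene, 3 were higher and 1 lower (2.59% and 0.862%, median −0.08). The 3 were Peg13, Gm16163 and 4930517L18Rik, the last within the annotated span of Pcdha4b and with 22.2, 61.7, 24.6, 16.6 and 21.5 normalized counts in cKO libraries, against 12.1, 12.2, 10.1, 4.79 and 11.03 in control libraries (1.54, adjusted p = 0.036). Gm16163 (1.39, adjusted p = 0.028) and 4930517L18Rik lost their calls in 7 and 8 of the 10 fits with 1 library left out (adjusted p at most 0.072 and 0.12). Single-exon genes had 6 increases among 122 tested, and spliced genes 27 among 568 (4.92% and 4.75%). Genes starting within 10000 bp downstream of a coding gene end on the same strand had 2 increases among 91, and the others 31 among 599 (2.20% and 5.18%). All of these shares rest on few calls and were not tested against each other.

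Distance beyond the threshold showed no steady trend. The share called higher was 5.07% at 10000 to 20000 bp, 3.91% at 20000 to 50000 bp, 6.92% at 50000 to 100000 bp and 3.68% beyond. Nor did the nearest coding gene move with its distal lncRNA gene: across the 616 pairs with both tested, Pearson's r of the log2 fold changes was 0.01 and Spearman's rho 0.04, as a description of genes that share libraries. Of the 36 called members with a tested nearest coding gene, that gene was called in the same direction in 3 and in the opposite direction in 2. Its median log2 fold change was −0.01 next to the 28 called higher and 0.01 next to the 8 called lower.

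The second readout was antisense RNA counted over the 3000 bp upstream of a gene's start, on the strand opposite to the gene, which the authors call PROMPTs (promoter upstream transcripts). Such a region was given for 332 distal lncRNA genes, of which 207 had a mean of at least 3 counts and were tested. This filter used the same counts as the comparison, so a region near 0 in control could enter through the cKO libraries. In Dis3 cKO testes 37 were higher and none lower (edgeR's quasi-likelihood test, adjusted over 12345 regions), and at unadjusted p under 0.05 there were 50 higher and none lower. Of all regions tested, 13.6% were higher and 0.0486% lower. The share for distal lncRNA genes was 17.9%, against 24.9% of 6048 regions at protein-coding genes and 14.6% of 41 at proximal lncRNA genes. The median log2 fold change was 0.73 at distal lncRNA genes and 0.64 over all regions. In 27 of the 207 regions every cKO library was above every control library, and over all regions tested the share was 11.1%. Counts summed over the 332 regions came to 3434 to 5521 normalized counts in cKO libraries and 2177 to 2534 in control libraries, without overlap. In DESeq2, 41 were higher and none lower. Among regions with a mean of at least 10 counts, 32 of 59 at distal lncRNA genes were higher and none lower. The share over all regions at that filter is not given here, and the 13.6% above is no comparator for it. The shares called thus depend on the filter, and those of the gene classes were not set side by side at like counts or tested.

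The antisense RNA upstream of Malat1 had 125, 132, 99.5, 72.0 and 61.1 normalized counts in cKO libraries 1 to 5, against 25.2, 19.8, 9.24, 20.1 and 6.43 in control libraries 1 to 5. The region was higher in each cKO library (log2 fold change 2.60 ± 0.32, adjusted p = 1.3e-13), next to a gene body that was level between groups. Similarly, antisense RNA upstream of Mir17hg had 23.4, 23.7, 10.1, 9.97 and 14.7 in cKO libraries, against 5.59, 2.83, 0, 0 and 0 in control libraries (3.21 ± 0.77, adjusted p = 0.00049). At Gm13110, it had 127, 89.2, 68.2, 58.7 and 39.6 in cKO libraries, against 3.73, 3.77, 4.20, 10.5 and 4.59 in control libraries (3.81 ± 0.39, adjusted p = 1.6e-19), while Gm13110 itself was not called (0.87, adjusted p = 0.19).

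The largest upstream change was at Gm28783, with 138, 95.9, 145, 33.2 and 51.0 normalized counts in cKO libraries 1 to 5, against 3.73, 9.43, 5.04, 1.92 and 5.51 in control libraries 1 to 5 (4.14 ± 0.38, adjusted p = 1.9e-24). The sense gene was too low to be tested. It had 53.1, 30.4, 36.9, 6.65 and 9.06 normalized counts in cKO libraries, against 0.932, 1.89, 1.68, 0 and 4.59 in control libraries. At 1700112H15Rik the region averaged 61.9 ± 42.4 in cKO and 4.31 ± 3.73 in control (3.82 ± 0.43, adjusted p = 1.8e-16), with cKO libraries 4 and 5 at 8.86 and 24.9 the lowest of their group. The other regions among the 5 largest were those of Gm48823 (3.69, adjusted p = 0.00019) and Gm12108 (3.65, adjusted p = 0.019), the last with 0 counts in cKO libraries 4 and 5.

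Sense and upstream antisense RNA of the same gene were then set side by side. In 196 genes both were tested, and the upstream region was higher in 36 of these. The gene itself was higher in 3 (Gm43156, Gm9530 and Gm16079), lower in 3 (1700018B24Rik, 1700001L05Rik and Ppp1r36dn) and not called in 30, where 4.42% of all genes tested were higher and 3.48% lower. The median log2 fold change of the gene was 0.18 where its region was higher, against 0.05 over all distal lncRNA genes tested. Over the 196 genes, Pearson's r of the 2 log2 fold changes was 0.10 and Spearman's rho 0.11, a description across genes that share libraries. Of the 12 increased genes with a tested region, 9 had no call upstream, Gm14546 among them (0.04 ± 1.04, adjusted p = 0.99). Upstream of Ppp1r36dn, antisense RNA had 44.4, 59.8, 31.3, 39.9 and 31.7 normalized counts in cKO libraries, against 3.73, 8.48, 0, 0 and 9.19 in control libraries (3.25 ± 0.47, adjusted p = 7.4e-10), although the gene was lower. Promoters of the 25 genes with a higher upstream region and a RefSeq entry held a median of 12 CpG dinucleotides, against 7 over the 331 distal lncRNA promoters. The 331 include genes without a tested region, and this difference was not tested.

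**Figure D4:**
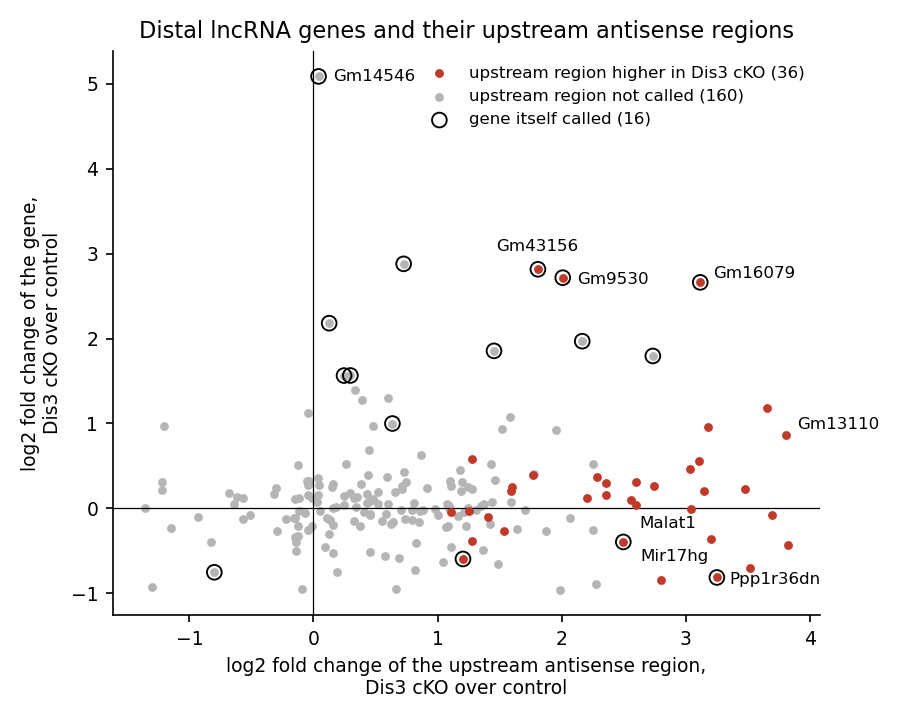
Each point is 1 of 196 distal lncRNA genes, placed by the log2 fold change of its upstream antisense region (x axis) and of the gene itself (y axis), Dis3 cKO over control; red marks the 36 regions called higher, grey the rest, and black rings the 16 genes that were themselves called. Red points spread along the x axis near 0 on the y axis, with Malat1 at 2.60 and 0.04, and 3 ringed red points lie high on both axes.

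Libraries numbered 1 to 3 and libraries numbered 4 and 5 stood apart in both groups. Within the cKO group, replicate 1 also lay far from replicates 2 and 3. A230057D06Rik, a host of the miR-344 family, showed the split between the 2 sets, with 216, 130, 118.5, 27.7 and 23.8 normalized counts in cKO libraries 1 to 5, against 259, 234, 193, 11.5 and 3.67 in control libraries 1 to 5. Summed stromal markers averaged 228623 normalized counts in cKO replicates 1 to 3 and 378890 in cKO replicates 4 and 5, against 251332 in control replicates 1 to 3 and 177265 in control replicates 4 and 5. All 41 called distal lncRNA genes changed in the same direction in both sets, which were part of the fit that called them. The fold change differed significantly between the sets for 4.58% of all genes tested (edgeR's quasi-likelihood test of the interaction). It did so for 14 of the 690 distal lncRNA genes, 8 with a higher and 6 with a lower fold in replicates 4 and 5. Of the called genes, 2 were among them: Gm33370, at 2.54 in replicates 1 to 3 and 0.29 in replicates 4 and 5, and 4930412M03Rik, at 1.78 and 0.06. With replicates 4 and 5 alone, 10 of 181 upstream regions tested were called higher, and with replicates 1 to 3 alone 34 of 214. The fits differ in the number of libraries, and shares over all regions in each set are not given here. These counts therefore do not compare the upstream change between the sets. What sets the library sets apart was not tested.

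**Figure D5:**
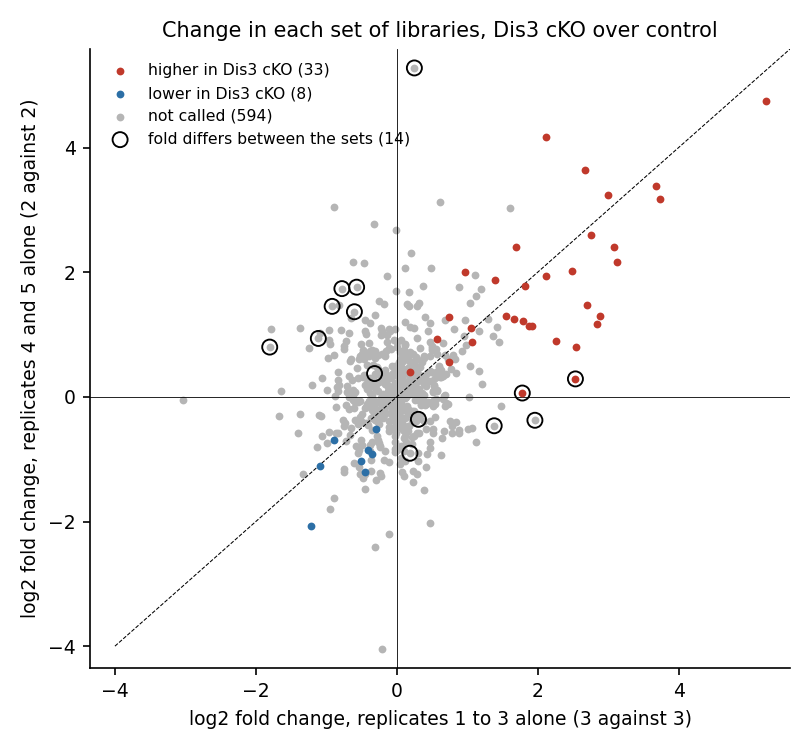
Log2 fold change, Dis3 cKO over control, of each distal lncRNA gene tested in both sets, in replicates 1 to 3 alone (x axis, 3 against 3 libraries) and in replicates 4 and 5 alone (y axis, 2 against 2); red and blue mark genes called higher (33) and lower (8) over all 10 libraries, grey the rest, and black rings the 14 genes whose fold differed between the sets. Called genes lie in the upper right and lower left quadrants, and ringed genes lie at varied distances from the dashed line of equality.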

How the data were processed

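Whole-testis RNA was sequenced by the authors in 5 Dis3 cKO and 5 control libraries after removal of ribosomal RNA. After adapter trimming (cutadapt) and alignment (HISAT2), the authors deposited raw read counts per gene and per upstream antisense region, made with featureCounts 1.6.4 on GENCODE M18 (GRCm38) per the file headers. Normalization was not applied to the deposited counts. Biotypes and symbols came from GENCODE M39 by gene ID (50129 of 54232 genes matched), and promoter and miRNA sequences from RefSeq (GRCm38.p6). Coordinates are those of the count table. Rows were filtered with edgeR's filterByExpr (min.count 10), TMM-scaled, and cKO was compared with control by the quasi-likelihood test of edgeR 4.0.16 (R 4.3.3), two-sided, with Benjamini-Hochberg adjustment over all genes. Upstream regions with a mean of at least 3 counts were tested alike, with the library sizes of the gene table. Values after ± are SE for log2 fold changes and SD over 5 libraries for counts. The p-values measure the spread between single mice, which includes the difference between the library sets because the main fit had no term for it. No 2 libraries agreed within sampling noise. DESeq2 1.42.0, other scaling, filters and thresholds and fits without single libraries were alternatives. The tests were also run on simulated counts, drawn with a common variability across genes and without library sets. That check does not cover these features of the data.

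The genes and lists were chosen with earlier results of these data known. Genes named are known lncRNAs, the 12 largest increases and 8 largest decreases past the threshold whose groups did not overlap and whose mean reached 20 normalized counts (6 decreases met this), the 5 most abundant, those nearest a threshold, the 5 largest upstream changes, and the 3 with the lowest p in each position class. Gm28783, A230057D06Rik, Gm2044, BC043934, Rncr4, Gm16973, 1700018B24Rik, Gm16079 and the genes whose fold differed between library sets were named after their values were seen.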

Additional observations from a re-analysis of the deposited data

Results flagged for a closer look

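Of the 150 groups of 5 libraries of named genes, 10 held a library far from the other 4, where chance gives about 1 in 20. In Dis3 cKO, replicate 1 stood high for Gm14546 (288.8 normalized counts), E030044B06Rik (154.3) and Platr27 (24.69) and low for Ppp1r36dn (33.33), replicate 2 stood high for 4930517L18Rik (61.72) and low for Sox2ot (6.646), and replicate 4 stood high for Gm12108 (33.23). In control, replicate 3 stood high for Mir99ahg (1531.7), replicate 4 high for 4930412M03Rik (42.17) and replicate 5 low for Tslrn1 (93.72).

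The log2 fold change differed between replicates 4 and 5 and replicates 1 to 3, by edgeR's quasi-likelihood test of the interaction, for 4 named or called genes. The difference was −2.25 for Gm33370 (adjusted p = 0.016), −1.73 for 4930412M03Rik (adjusted p = 0.047), 2.33 for A230057D06Rik (adjusted p = 0.023) and 5.03 for Gm12108 (adjusted p = 0.017), where the control libraries 4 and 5 had 0 and 0.919 normalized counts.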

How the results depend on the processing

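Counts of distal lncRNA genes called higher and lower were 33 and 8. They were 40 and 10 with DESeq2, 33 and 7 with DESeq2's size factors in edgeR, 34 and 10 with no filter, 36 and 10 with a replicate block, 45 and 12 with a term for the library set, and 31 and 8 with replicates 1 to 3 alone. Replicates 4 and 5 alone gave 41 and 21, with a median log2 fold change of 0.12 in place of 0.05. Fewer genes remained for testing beyond 50000 bp (17 higher, 2 lower) and at a mean of at least 50 counts (9 higher, 8 lower). The same held at 10 counts in both groups (21 higher, 8 lower) and without coding overlap (21 higher, 6 lower). Without single libraries there were 22 to 31 higher and 3 to 8 lower, with medians of −0.010 to 0.077. Upstream regions higher numbered 29 to 39 without single libraries, 10 with replicates 4 and 5 alone, and 32 with a replicate block. Region counts lower were 0 in each of these. Whether replicate numbers pair the libraries was not settled, and the main fit did not treat them as pairs. Same-number correlations were 0.083 to 0.18 and different-number correlations −0.18 to 0.16. Of the 5 cKO libraries, 3 correlated best with their own number. For the named genes, 1114 of the refitted values stayed on their side of the threshold, 97 lost and 11 gained a call, and no call reversed its direction. Some values that were not called changed sign, such as A230057D06Rik, at −0.45 over all libraries and 1.76 with replicates 4 and 5 alone. Low counts limit the precision: the median SE of the log2 fold change was 0.35 for distal lncRNA genes and 0.11 for protein-coding genes.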
